A study of Mus musculus with 20 samples.

Results

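Microglia, the resident macrophages of the brain, take up lipid and cholesterol from lipoproteins and from engulfed membranes, and they store it or export it. The genes described here are 8 of the 54838 genes counted in the libraries: Apoe, Lpl, Abca1, Abcg1, Soat1, Srebf2, Nr1h2 and Nr1h3. They were taken by name, as a list of lipid transport and cholesterol genes, and not by a threshold on their levels. The libraries came from frontal cortex of mice at postnatal day 40, from 1000 cells a mouse that were gated on high CD11b with low CD45 and amplified by template switching. The labels give 5 genotypes: hC4A/A in 2 libraries, hC4A/- in 5, hC4B/- in 4, C4-/- in 5 and WT in 4. C4 is a complement component of the classical pathway, hC4A and hC4B stand for its human genes, and C4-/- stands for mice lacking C4. The labels do not say whether the human genes were placed on a C4-deficient background, how they were driven, or the sex of the mice. As labelled, the design sets C4-/- and each human C4 genotype against WT, and the human C4 genotypes against C4-/- and against each other.

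Cholesterol balance in a macrophage rests on opposing controls. The liver X receptors, LXR-alpha (Nr1h3) and LXR-beta (Nr1h2), are nuclear receptors that bind oxysterols as heterodimers with RXR and switch on export genes, among them Abca1, Abcg1 and Apoe. SREBP2, the product of Srebf2, is released from the endoplasmic reticulum when sterol is scarce and switches on synthesis and uptake. Apoe encodes the main apolipoprotein of brain lipoproteins, and Lpl encodes lipoprotein lipase, which frees fatty acids from lipoprotein triglyceride. Abca1 passes cholesterol and phospholipid to lipid-poor apolipoprotein, Abcg1 passes cholesterol to formed lipoprotein particles, and Soat1 esterifies cholesterol for storage in droplets.

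Promoter sequence is shown for Abca1, the gene of the list with a match to the LXR motif. RefSeq windows of 250 bases before a start site (GRCm38.p6) were matched for 6 of the 8 genes, and Lpl and Abcg1 had no entry. A direct repeat spaced by 4 bases (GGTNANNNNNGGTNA), the sterol response element TCACNCCAC and the E-box CACGTG were searched on both strands. Abca1 held a direct repeat match on the strand opposite to the gene, at bases -67 to -53 from the start site, and an E-box at -147 to -142, and these matches do not overlap. The direct repeat occurred in 0.621% of 32851 promoter windows of the same length, the sterol response element in 1.05% and the E-box in 6.02%. The windows of Apoe, Nr1h2, Nr1h3, Srebf2 and Soat1 held no match to these motifs, which says nothing of the factors themselves. The Abca1 window lies at chr4:53159896-53160145 on the minus strand, and capitals mark the E-box first and then the direct repeat, which reads GGTTACTACCGGTCA on the other strand.
Abca1: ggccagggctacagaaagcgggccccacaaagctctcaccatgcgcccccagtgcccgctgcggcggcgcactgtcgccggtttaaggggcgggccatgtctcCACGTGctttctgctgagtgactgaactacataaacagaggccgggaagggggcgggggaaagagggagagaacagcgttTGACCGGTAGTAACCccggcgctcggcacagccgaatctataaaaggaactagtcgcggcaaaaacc

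Gene counts per library ran from 855099 to 2735181, with a median of 1710215.5. All 10 microglial markers were detected in all 20 libraries, with a median of 953 CPM for Cx3cr1, where CPM is the usual depth-scaled count. In 4 libraries 27178 to 30907 genes were detected, against 11348 to 23912 in the other 16. These broadly detecting libraries were hC4A/A replicate 2, hC4B/- replicates 2 and 3 and C4-/- replicate 3, and values are given with and without them where they bear on a gene. Mouse C4b counts ran from 4 to 428 over the 16 libraries not labelled WT, and were 0, 0, 2 and 0 in those labelled WT. This goes against a plain reading of the labels C4-/- and WT, so the genotype names below are those of the labels. The deposited names of the WT libraries form a series of their own, and genotype and that series cannot be told apart in any comparison with WT. Each library was taken as 1 mouse, and nothing else in the labels separates cultures, litters or days.

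Abcg1 had the highest mean of the list. It was 2694 CPM over 20 libraries, rank 24 of 12680 tested genes, and 369 CPM per kb of exon, rank 65 by that scale. In 3 of the 4 broadly detecting libraries, however, Abca1 lay above Abcg1, at 229 against 47.9 CPM in hC4A/A replicate 2, 224 against 60.3 CPM in hC4B/- replicate 2 and 281 against 90.4 CPM in C4-/- replicate 3, and also per kb. Apoe followed at 77.1 CPM per kb (rank 271), then Soat1 at 14.6 (rank 1629) and Abca1 at 12.6 CPM per kb (rank 1889). The regulators and the lipase were low per exon length, with Nr1h2 at 2.32, Lpl at 1.54, Srebf2 at 0.838 and Nr1h3 at 0.307 CPM per kb. Soat1 and Abca1 do not differ beyond their spread in this order, and neither do neighbours among the low 4. The genes with the least spread were Abca1, with a coefficient of variation of 49.8% over the 20 libraries, and Soat1, with 52.2%, and without the broadly detecting libraries the order turned, with 41.4% for Abca1 and 38.4% for Soat1. The coefficient was 71.4% for Abcg1, 81% for Nr1h2, 85.7% for Apoe, 128% for Srebf2, 129% for Nr1h3 and 174% for Lpl. RNA came from sorted pools, so fewer expressing cells and less transcript per cell cannot be told apart.

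**Figure D1:**
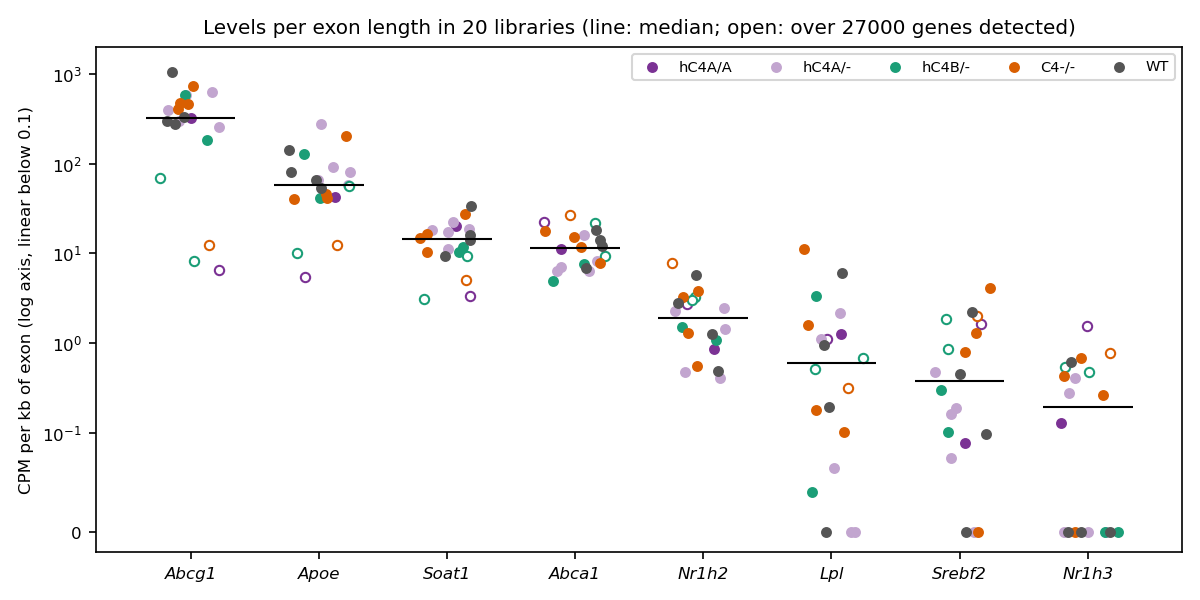
Level of each gene in CPM per kb of exon (log axis, linear below 0.1) in 20 libraries, coloured by genotype, with the median as a line and open circles for the 4 libraries with over 27000 genes detected. Abcg1 lies highest with a mean of 369 CPM per kb, and the open circles fall below all other libraries for Abcg1.

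Apoe (ENSMUSG00000002985, GRCm38 chromosome 7, 19696109 to 19699188, minus strand) was detected in all 20 libraries. It stood at 91.9 and 11.7 CPM in hC4A/A, at 142, 173, 124, 197 and 587 CPM in hC4A/-, and at 273, 21.7, 122 and 88.4 CPM in hC4B/-. It stood at 87.4, 88.6, 26.2, 98.8 and 430 CPM in C4-/-, and at 305, 115, 142 and 172 CPM in WT. Both hC4A/A libraries lay below all 5 hC4A/- and all 4 WT libraries, and Apoe was the 1 gene of the 7 tested of which that held. Over all tested genes it held for 2.71% against hC4A/- and for 3.79% against WT. All other pairs of genotypes overlapped. Of the 2 hC4A/A libraries, replicate 2 was the lowest of the study and is a broadly detecting library. Apoe ranged from 11.7 to 122 CPM in those 4 libraries (median 24), and from 87.4 to 587 CPM in the other 16 (median 142).

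Astrocytes and border macrophages are other sources of Apoe in brain, and their markers are set beside it. The CD11b part of the gate would remove astrocytes but not border macrophages, which also carry CD11b. The gate also required low CD45, and the share of border macrophages that it left was not measured. The 6 astrocyte markers summed to 117 to 537 CPM in hC4A/A, 294 to 522 in hC4A/-, 55.8 to 295 in hC4B/-, 113 to 736 in C4-/- and 316 to 627 CPM in WT. Most of the sum was Slc1a3, a glutamate transporter, with a median of 350 CPM, while Gfap and Aldh1l1 had medians of 0 CPM and Aqp4 0.81 CPM. In hC4A/- replicate 5, where Apoe reached 587 CPM, the sum was 433 CPM. In the 4 broadly detecting libraries the sum was 55.8 to 117 CPM, below the 163 to 736 CPM of the other 16. The 6 border macrophage markers summed to 29.8 to 39 CPM in hC4A/A, 12.4 to 99.5 in hC4A/-, 15.7 to 46 in hC4B/-, 4.3 to 65.3 in C4-/- and 10.7 to 29 CPM in WT, mostly from Mrc1 (median 15.5 CPM), with medians of 0 CPM for Cd163, Lyve1, Pf4, Cbr2 and Ms4a7. In hC4A/- replicate 5 this sum was 27.2 CPM. The part of other cells in the Apoe values was not tested.

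Lpl (ENSMUSG00000015568, GRCm38 chromosome 8, 68880491 to 68907448, plus strand) held 531 counts in all, in 17 of 20 libraries. It stood at 13.2 and 11.7 CPM in hC4A/A, at 0, 22.6, 0, 11.7 and 0.681 CPM in hC4A/-, and at 0.427, 7.24, 5.44 and 35.1 CPM in hC4B/-. It stood at 116, 1.86, 3.28, 1.07 and 16.6 CPM in C4-/-, and at 10, 0, 63.6 and 2.03 CPM in WT. A few libraries of every larger group carried most of the transcript, and all 5 groups overlapped. C4-/- replicate 1 alone held 202 of the 531 counts. An amount of 3 counts is worth 0.967 to 3.89 CPM, depending on the library, so the lowest Lpl values cannot be ordered at this depth.

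Abca1 (ENSMUSG00000015243, GRCm38 chromosome 4, 53030787 to 53159895, minus strand) was detected in all 20 libraries. It stood at 115 and 229 CPM in hC4A/A, at 167, 65.6, 84.4, 73.7 and 65.7 CPM in hC4A/-, and at 78.2, 224, 97.3 and 51.2 CPM in hC4B/-. It stood at 158, 80.2, 281, 124 and 185 CPM in C4-/-, and at 71.1, 125, 188 and 146 CPM in WT. In hC4A/-, 4 of 5 libraries lay within 65.6 to 84.4 CPM, and every other group had libraries above that range. The remaining hC4A/- library, replicate 1 at 167 CPM, also lay above it. In hC4B/- the libraries above it were the broadly detecting replicates 2 and 3, while replicates 1 and 4 stood at 78.2 and 51.2 CPM. No hC4A/- library was broadly detecting. Unlike Apoe, Abca1 reached its highest levels in broadly detecting libraries, which stood at 97.3 to 281 CPM (median 227), against 51.2 to 188 CPM in the other 16 (median 99.8). The ratio of the highest to the lowest library was 5.5.

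Abcg1 (ENSMUSG00000024030, GRCm38 chromosome 17, 31057675 to 31117988, plus strand) held 100207 counts and took 0.00353% to 0.585% of the counts of a library. It stood at 2337 and 47.9 CPM in hC4A/A, at 2884, 1883, 2209, 4243 and 4588 CPM in hC4A/-, and at 4291, 60.3, 506 and 1358 CPM in hC4B/-. It stood at 5340, 3470, 90.4, 2955 and 3345 CPM in C4-/-, and at 2206, 2417, 7646 and 2006 CPM in WT. The highest library, WT replicate 3, lay 159 times above the lowest, hC4A/A replicate 2, while all genotypes overlapped. The low values were the 4 broadly detecting libraries, at 47.9 to 506 CPM (median 75.4), and the other 16 stood at 1358 to 7646 CPM (median 2920), without overlap. Abcg1 was the 1 gene of the 7 tested that lay lower in all 4 without overlap, and 7.05% of all tested genes did. Microglial markers summed to 3863 to 6749 CPM in the 4 libraries and to 3488 to 6537 CPM in the 16, so the sorted cell type's markers were at similar levels in both. Breadth of detection was not spread evenly over genotypes: without those libraries, Abcg1 averaged 2824 ± 2074 CPM in hC4B/- (SD, n = 2) in place of 1554 ± 1902 (n = 4), and 3778 ± 1064 CPM in C4-/- (n = 4) in place of 3040 ± 1889 (n = 5).

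**Figure D2:**
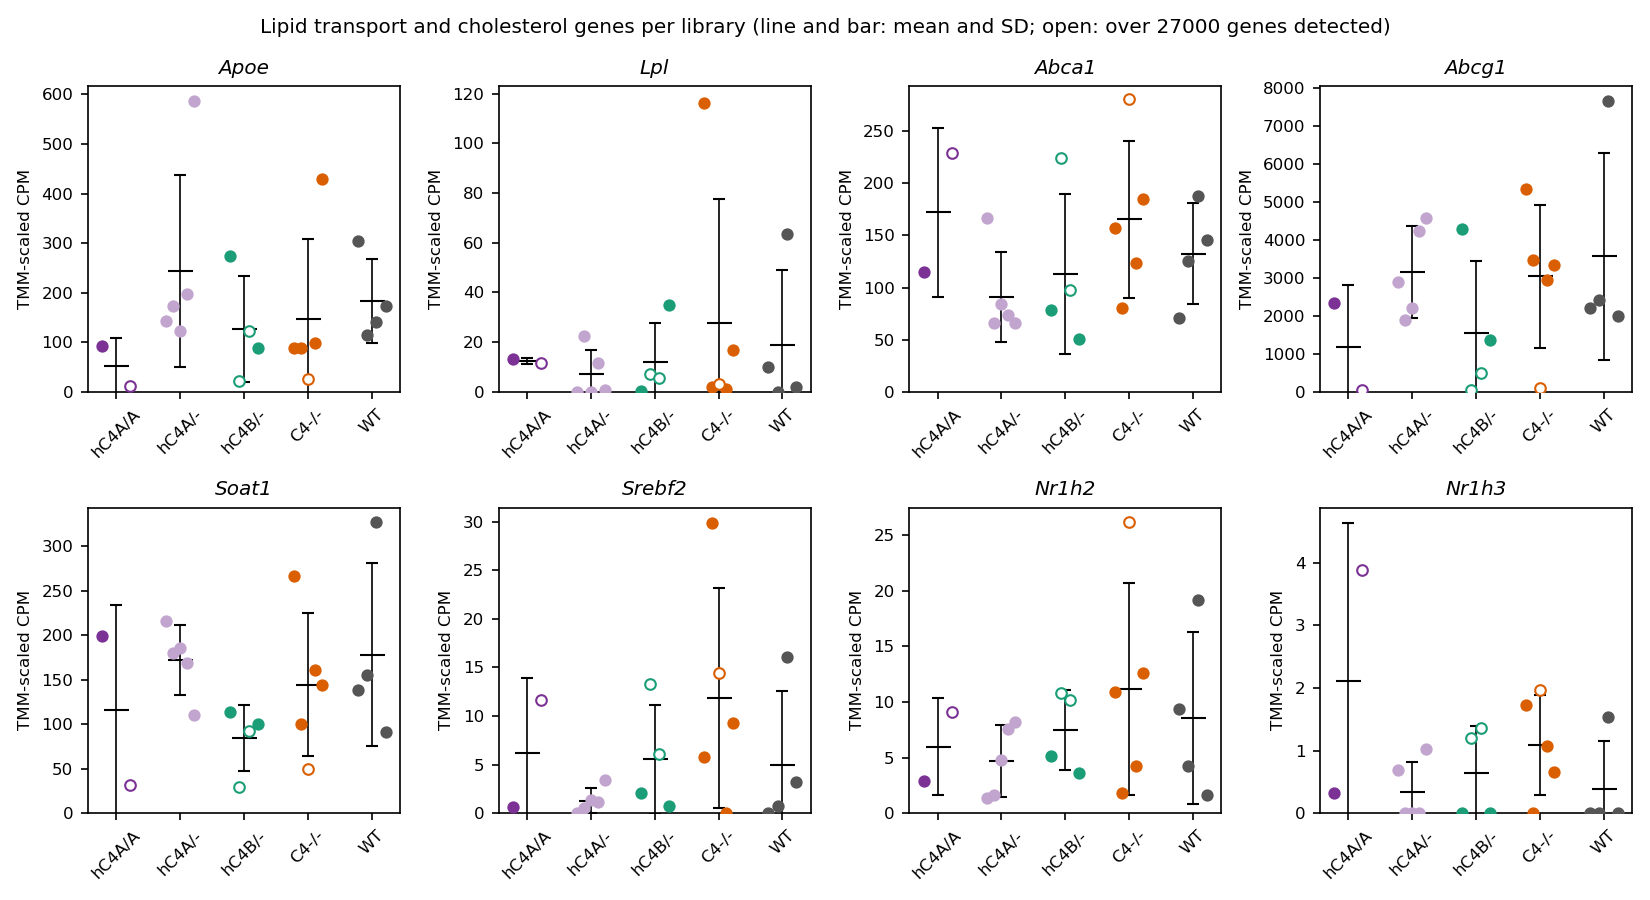
TMM-scaled CPM of each gene in each library by genotype, with the mean and SD as lines (bars are clipped at 0 CPM) and open circles for the 4 libraries with over 27000 genes detected. Groups overlap for most genes, and for Abcg1 the open circles lie at 47.9 to 506 CPM while the filled ones reach 7646 CPM.

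Soat1 (ENSMUSG00000026600, GRCm38 chromosome 1, 156424525 to 156474331, minus strand) encodes the main cholesterol-esterifying enzyme of macrophages. It stood at 199 and 32.4 CPM in hC4A/A, at 217, 181, 185, 169 and 111 CPM in hC4A/-, and at 114, 30.2, 92.6 and 101 CPM in hC4B/-. It stood at 266, 101, 49.8, 162 and 144 CPM in C4-/-, and at 139, 156, 327 and 91.8 CPM in WT. The hC4B/- libraries were low as a group, although the highest of them, at 114 CPM, lay just above the lowest hC4A/- library, at 111 CPM. The broadly detecting libraries stood at 30.2 to 92.6 CPM (median 41.1) and the other 16 at 91.8 to 327 CPM (median 159). Without them hC4B/- averaged 108 ± 9.63 CPM (SD, n = 2), against 84.5 ± 37.3 CPM with them (n = 4). Soat2, the paralog of liver and intestine, held 32 counts over all libraries and was not tested.

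Srebf2 (ENSMUSG00000022463, GRCm38 chromosome 15, 82147181 to 82205379, plus strand) held 160 counts in 17 libraries. It had 2 and 9 counts in hC4A/A, 0, 1, 2, 2 and 10 counts in hC4A/-, and 5, 11, 9 and 1 counts in hC4B/-. It had 10, 32, 22, 0 and 14 counts in C4-/-, and 0, 1, 21 and 8 counts in WT. On the scaled level, the 5 hC4A/- libraries lay between 0 and 3.4 CPM, and 4 of the 5 C4-/- libraries lay above them at 5.75 to 29.8 CPM, while C4-/- replicate 4 held no count. The hC4A/A, hC4B/- and WT libraries spanned 0 to 16.1 CPM and overlapped with both. Srebf2 stood at 6.13 to 14.4 CPM in the broadly detecting libraries and at 0 to 29.8 CPM in the other 16.

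Nr1h2 (ENSMUSG00000060601, GRCm38 chromosome 7, 44549616 to 44553951, minus strand) was the more abundant LXR gene, with 257 counts and detection in 20 libraries. It stood at 2.9 and 9.07 CPM in hC4A/A, at 1.38, 1.61, 4.81, 7.61 and 8.17 CPM in hC4A/-, and at 5.13, 10.9, 10.2 and 3.65 CPM in hC4B/-. It stood at 10.9, 1.86, 26.2, 4.3 and 12.6 CPM in C4-/-, and at 9.35, 4.27, 19.2 and 1.63 CPM in WT. All genotypes overlapped, and the highest library was the broadly detecting C4-/- replicate 3. Nr1h3 (ENSMUSG00000002108, GRCm38 chromosome 2, 91184061 to 91202834, minus strand) held 22 counts in 11 libraries, with at most 3 in any of them, and did not pass the filter on low counts. Its counts were 1 and 3 in hC4A/A, 1, 0, 0, 0 and 3 in hC4A/-, 0, 1, 2 and 0 in hC4B/-, 3, 0, 3, 2 and 1 in C4-/-, and 0, 0, 2 and 0 in WT. At this depth only a large difference of Nr1h3 could have been detected. Fitted without the filter, it had an unadjusted p of 0.783 in the joint test of the genotypes by edgeR (adjusted p = 0.855). Of Nr1h3, 34 of 2515 exonic bases are shared with the transcript Gm13783 on the same strand.

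Across genotypes, none of the 7 tested genes passed an adjusted p of 0.05 in any of 11 contrasts, by edgeR's quasi-likelihood test with Benjamini-Hochberg adjustment over 12680 genes. The share of all tested genes that passed was 0% in each of those contrasts, so the count of 0 among 7 does not set these genes apart. In a joint F test over the 5 genotypes, 0 of 7 passed, against 0.118% of all genes (15 of 12680), and 0 of 7 had an unadjusted p under 0.05, against 12% (1520 genes). In that test F was 1.39 for Srebf2 (adjusted p = 0.671), 1.2 for Apoe (0.735), 0.765 for Soat1 (0.867), 0.684 for Abca1 (0.891), 0.631 for Lpl (0.904), 0.595 for Abcg1 (0.914) and 0.483 for Nr1h2 (0.94), by edgeR. DESeq2 and limma voom also called 0 of the 7 genes in every contrast and in the joint test. Libraries of a genotype differed widely, with a biological coefficient of variation of 1.03 over all genes, and the intervals below are wide for that reason.

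Between the libraries labelled C4-/- and those labelled WT, no listed gene differed beyond the spread between libraries, and C4b itself went against these labels. In C4-/- against WT, log2 fold changes ran from -0.33 to 1.25 with a median of 0.32, beside 0.33 over all genes, and 0 of 7 genes had an unadjusted p under 0.05, against 8.55% of all genes (1084). The smallest p was that of Srebf2, at 11.9 ± 11.3 CPM in C4-/- (SD, n = 5) and 5.02 ± 7.52 CPM in WT (n = 4). Its log2 fold change was 1.25 ± 1.32 (SE, 95% interval -1.44 to 3.94, adjusted p = 0.783 by edgeR), and it was 3.08 without WT replicate 3 and 0.57 without C4-/- replicate 2.

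With a human C4 gene, no listed gene differed from WT beyond the spread between libraries, and the gene with the smallest p was Srebf2 in hC4A/-, Soat1 in hC4B/- and Apoe in hC4A/A. In hC4A/- against WT, log2 fold changes ran from -1.81 to 0.41 (median -0.54, beside -0.05 over all genes), with 0 of 7 at an unadjusted p under 0.05, against 7.51% of all genes (952). Srebf2 had the smallest p there, at 1.3 ± 1.3 CPM in hC4A/- (SD, n = 5) and 5.02 ± 7.52 CPM in WT (n = 4), which gave a log2 fold change of -1.81 ± 1.32 (SE, 95% interval -4.51 to 0.88, adjusted p = 0.901 by edgeR). That value rested on WT replicate 3, with 21 of the 30 WT counts, and was 0.01 without it. In hC4B/- against WT, log2 fold changes ran from -1.20 to 0.14 (median -0.54, beside 0.18), with 0 of 7 at an unadjusted p under 0.05, against 13.1% (1658). Soat1 averaged 84.5 ± 37.3 CPM in hC4B/- and 178 ± 103 CPM in WT (SD, n = 4 each), a log2 fold change of -1.07 ± 0.70 (SE, 95% interval -2.50 to 0.35, adjusted p = 0.477 by edgeR). Without WT replicate 3 the Soat1 value was -0.60.

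In hC4A/A against WT, log2 fold changes ran from -1.81 to 0.38 (median -0.59, beside 0.18 over all genes), with 0 of 7 at an unadjusted p under 0.05, against 8.41% (1066). Apoe averaged 51.8 ± 56.7 CPM in hC4A/A (SD, n = 2) and 183 ± 84.4 CPM in WT (n = 4). Its log2 fold change was -1.81 ± 1.10 (SE, 95% interval -4.06 to 0.44, adjusted p = 0.654 by edgeR), and was -0.95 without hC4A/A replicate 2 and -3.94 without hC4A/A replicate 1. With the 4 other genotypes weighted equally against WT, log2 fold changes ran from -0.80 to -0.02 (median -0.51, beside 0.15), with 0 of 7 at an unadjusted p under 0.05, against 9.61% (1218). Abcg1 had the smallest p, with plain means over libraries of 2476 ± 1717 CPM in the other genotypes (SD, n = 16) and 3569 ± 2723 CPM in WT (n = 4). Its log2 fold change, from the equally weighted genotypes and not from these means, was -0.80 ± 0.82 (SE, 95% interval -2.46 to 0.87, adjusted p = 0.732 by edgeR). It was -0.10 without WT replicate 3 and -1.86 without hC4A/A replicate 1.

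Against C4-/-, Srebf2 was the 1 gene of the list with an unadjusted p under 0.05, in hC4A/-. It averaged 1.3 ± 1.3 CPM in hC4A/- and 11.9 ± 11.3 CPM in C4-/- (SD, n = 5 each), a log2 fold change of -3.06 ± 1.31 (SE, 95% interval -5.74 to -0.39), with an unadjusted p of 0.0263 and an adjusted p of 0.44 by edgeR. In this contrast 1 of 7 listed genes had such a p, against 10.7% of all genes (1354), and the 7 log2 fold changes ran from -3.06 to 0.74 (median -0.86, beside -0.32). The Srebf2 value was -2.94 without the broadly detecting libraries and -2.39 without C4-/- replicate 2, its highest library. Its unadjusted p was no longer under 0.05 without C4-/- replicate 2, and likewise without hC4A/- replicate 1 or hC4A/- replicate 2. By DESeq2 it was -3.41 with an adjusted p of 0.199, and by limma voom -2.15 with an unadjusted p of 0.101. The measurement rests on 15 counts in hC4A/- and 78 counts in C4-/-.

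In hC4B/- against C4-/-, log2 fold changes ran from -1.21 to -0.21 (median -0.77, beside -0.03 over all genes), with 0 of 7 at an unadjusted p under 0.05, against 4.52% (573). Soat1 averaged 84.5 ± 37.3 CPM in hC4B/- (SD, n = 4) and 145 ± 80.6 CPM in C4-/- (n = 5), a log2 fold change of -0.77 ± 0.67 (SE, 95% interval -2.13 to 0.58, adjusted p = 0.99 by edgeR). It was -0.20 without hC4B/- replicate 2. In hC4A/A against C4-/-, log2 fold changes ran from -1.48 to 0.05 (median -1.0, beside -0.02), with 0 of 7 at an unadjusted p under 0.05, against 2.17% (275). Apoe averaged 51.8 ± 56.7 CPM in hC4A/A (n = 2) and 146 ± 161 CPM in C4-/- (n = 5), a log2 fold change of -1.48 ± 1.06 (SE, 95% interval -3.64 to 0.68, adjusted p = 1 by edgeR), and the value was -0.52 without C4-/- replicate 5 and -3.33 without hC4A/A replicate 1. With the 3 human C4 genotypes weighted equally against C4-/-, log2 fold changes ran from -1.72 to -0.28 (median -0.75, beside -0.20), with 0 of 7 at an unadjusted p under 0.05, against 4.41% (559). Srebf2 had plain means over libraries of 3.73 ± 4.66 CPM in the 3 genotypes (SD, n = 11) and 11.9 ± 11.3 CPM in C4-/- (n = 5). Its log2 fold change, from the equally weighted genotypes, was -1.72 ± 1.04 (SE, 95% interval -3.84 to 0.39, adjusted p = 0.9998 by edgeR). It was -1.05 without C4-/- replicate 2 and -2.74 without hC4A/A replicate 2. Without the broadly detecting libraries the Srebf2 value was -3.18. That fit left 1 hC4A/A library with 2 Srebf2 counts and 2 hC4B/- libraries with 6 counts, so only the size of the value is given. These contrasts share the C4-/- libraries and are not independent of each other.

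Between the human C4 genotypes, the smallest p in hC4A/- against hC4B/- was that of Soat1, and in hC4A/A against hC4A/- that of Apoe. In hC4A/- against hC4B/-, log2 fold changes ran from -1.95 to 1.02 (median -0.30, beside -0.14 over all genes), with 0 of 7 at an unadjusted p under 0.05, against 16.7% (2122). Soat1 averaged 172 ± 38.8 CPM in hC4A/- (SD, n = 5) and 84.5 ± 37.3 CPM in hC4B/- (n = 4), a log2 fold change of 1.02 ± 0.67 (SE, 95% interval -0.34 to 2.39, adjusted p = 0.443 by edgeR). Without the broadly detecting libraries hC4B/- averaged 108 ± 9.63 CPM (SD, n = 2), and hC4A/- held none of them. The Soat1 value was 0.72 without hC4B/- replicate 2 and 1.20 without hC4B/- replicate 4. In hC4A/A against hC4A/-, log2 fold changes ran from -2.22 to 2.06 (median 0.28, beside 0.17), with 0 of 7 at an unadjusted p under 0.05, against 11.5% (1455). Apoe averaged 51.8 ± 56.7 CPM in hC4A/A (SD, n = 2) and 244 ± 193 CPM in hC4A/- (n = 5), and its log2 fold change was -2.22 ± 1.11 (SE, 95% interval -4.49 to 0.04, unadjusted p = 0.0543, adjusted p = 0.446 by edgeR). Its unadjusted p was 0.0282 with RLE scaling, 0.0088 by DESeq2 and 0.0293 by limma voom, with adjusted p of 0.255, 0.26 and 0.808. By edgeR it was also under 0.05 with a replicate block and in the fit on the groups of the contrast. It was 0.0836 by edgeR without the filter on low counts. With satellite-like genes removed, or with detected genes as a covariate, it was not under 0.05 by edgeR. By limma voom Abcg1 also had an unadjusted p under 0.05, at 0.0279 (adjusted p = 0.797), beside 0.312 by edgeR. Abcg1 stood at 47.9 CPM in the broadly detecting hC4A/A replicate 2. In hC4A/A replicate 1 it stood at 2337 CPM, within the 1883 to 4588 CPM of hC4A/-. The Apoe value was -1.39 without hC4A/A replicate 2 and -4.28 without hC4A/A replicate 1.

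**Figure D3:**
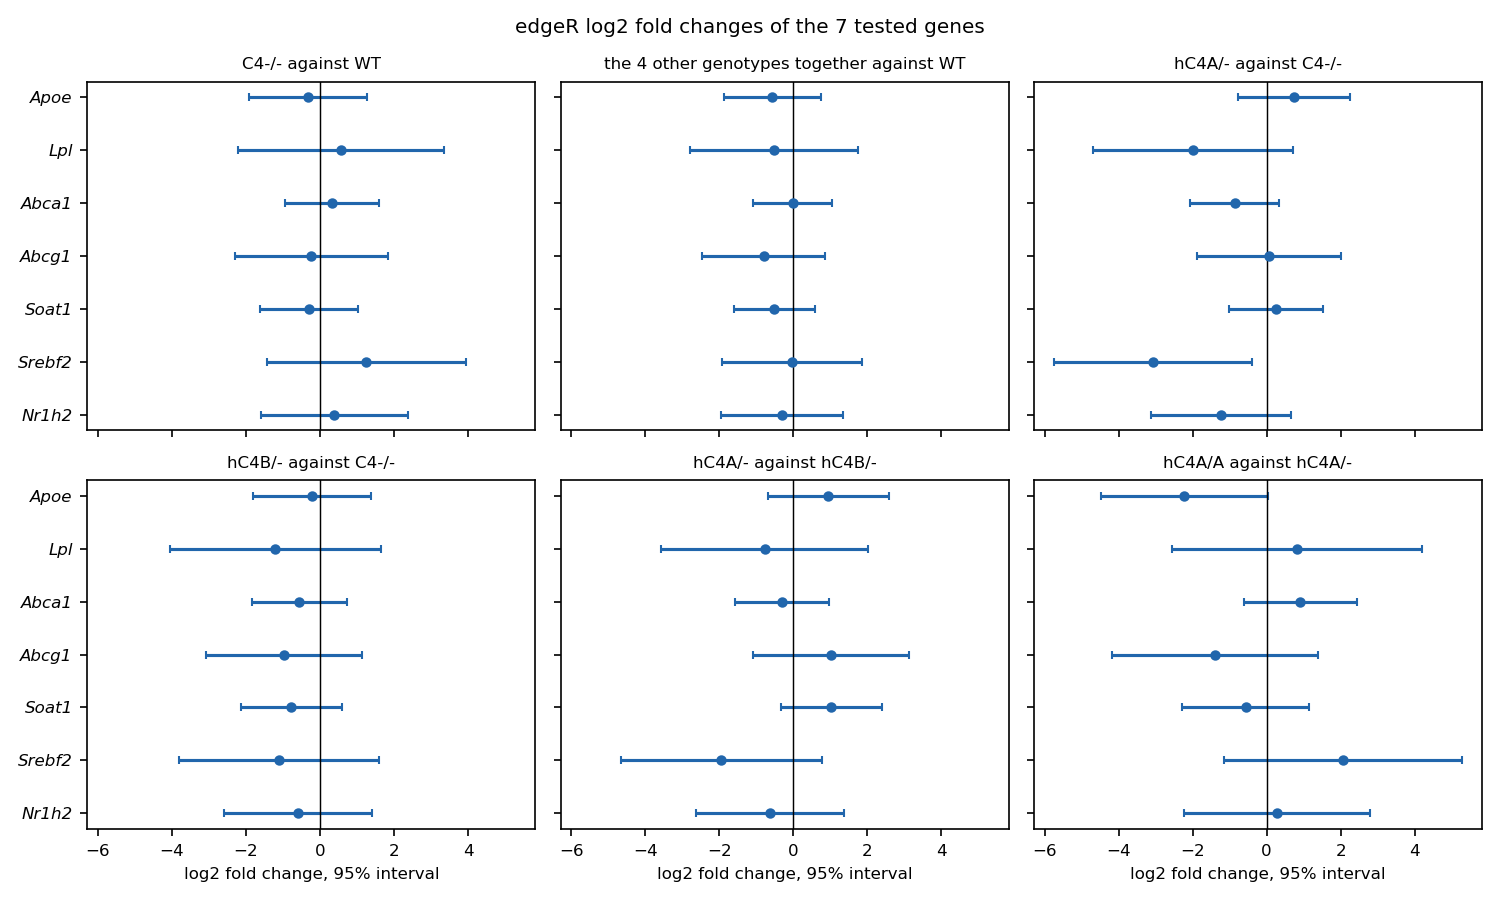
Log2 fold changes of the 7 tested genes by edgeR with 95% intervals in 6 of the 11 contrasts, named above each panel, where a positive value means higher in the genotype named first. Every interval crosses 0 except that of Srebf2 in hC4A/- against C4-/-, which runs from -5.74 to -0.39.

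The wider pathway was described through 4 lists with 68 genes, of which 43 were tested, and 0 of them passed an adjusted p of 0.05 in any of the 11 contrasts by edgeR. By list, 12 of 20 genes of cholesterol synthesis were tested, 15 of 16 of sterol sensing and uptake, 8 of 17 of lipoproteins and efflux, and 8 of 15 of sterol esters, oxysterols and lipid droplets. At an unadjusted p under 0.05, between 0 and 4 of the 43 genes were higher and between 0 and 6 lower, with the most in hC4A/- against hC4B/-, at 2 higher and 6 lower. These 8 are 18.6% of the 43 genes, beside the 16.7% of all tested genes in that contrast, and do not set the lists apart. Genes at high levels were Mylip, which encodes the ubiquitin ligase that marks the LDL receptor for breakdown and is an LXR target, with a mean of 1147 CPM (355 per kb), and Npc2, which carries cholesterol out of lysosomes, with 227 CPM (41.8 per kb). Pmvk, a mevalonate pathway kinase, stood at 75.7 CPM (44.2 per kb). The RXR partners of the LXRs were low, with 10.4 CPM for Rxra and 11.1 CPM for Rxrb. The neighbours of Apoe on chromosome 7 were hardly seen, with 3 counts for Apoc1, 5 for Apoc2 and 21 for Apoc4 over all libraries, and Ch25h, which makes an oxysterol that activates LXR, held 0 counts.

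**Figure D4:**
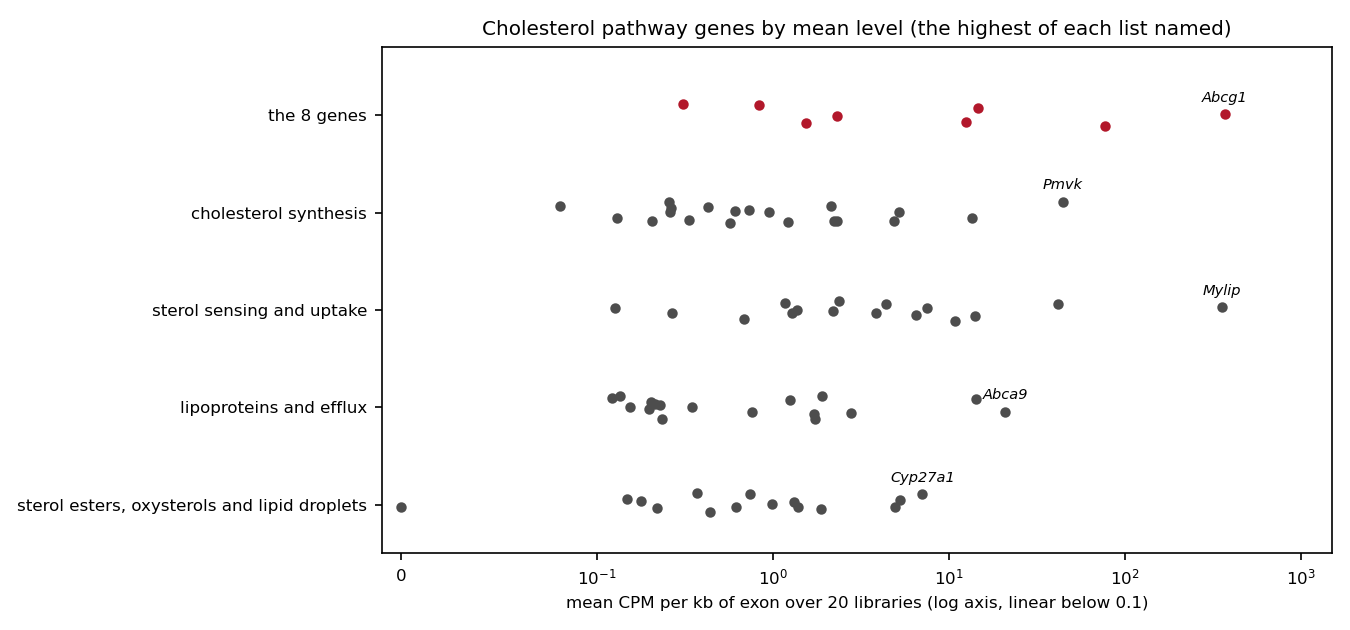
Mean CPM per kb of exon over 20 libraries (log axis, linear below 0.1) for the 8 genes, in red, and for the genes of 4 pathway lists, in grey, with the highest of each row named. Abcg1 and Mylip lie together at the top, at 369 and 355 CPM per kb.

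Among the 43 tested genes of these lists, 4 had an unadjusted p under 0.01 in at least 1 of the 11 contrasts, against 12.4% of all tested genes (1576 of 12680), and none passed adjustment. The 4 are named for their values, not as a share beyond that background. Lrp8, a receptor for apolipoprotein E and reelin, had 1 and 11 counts in hC4A/A, 1, 9, 23 and 0 counts in hC4B/-, and no count in any of the 4 WT libraries. Against a floor of 3 counts over the WT group, it was at least 15-fold higher in hC4B/- and at least 8.43-fold higher in hC4A/A, with adjusted p of 0.339 and 0.558 by edgeR. The counts of 11, 9 and 23 were those of broadly detecting libraries, and without hC4A/A replicate 2 the fitted log2 fold change of hC4A/A against WT was 2.54 in place of 6.65. Over the 4 other genotypes together it was at least 6.96-fold higher than in WT (69 counts, adjusted p = 0.422 by edgeR). C4-/- replicate 3, also a broadly detecting library, held 9 of the 69 counts. Outside WT, no library without broad detection held more than 6 counts. No WT library was broadly detecting, so breadth of detection differs between the sides of these bounds.

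Tm7sf2, a sterol reductase of cholesterol synthesis, had 26 counts over the hC4A/A libraries, 1 over the 5 hC4A/- libraries, 36 over hC4B/-, 17 over C4-/- and 5 over WT. Replicate 1 held 23 of the 26 counts in hC4A/A, and replicate 4 held 23 of the 36 in hC4B/-. The depth-scaled ratio of hC4A/- to hC4B/- was 0.0177 (exact 95% counting interval 0.000437 to 0.105, adjusted p = 0.236 by edgeR). The ratio of hC4A/- to C4-/- was 0.0481 (0.00115 to 0.307, adjusted p = 0.426 by edgeR), and that of hC4A/A to hC4A/- was 63.2 (10.4 to 2591, adjusted p = 0.36 by edgeR). With 1 library left out, the fitted log2 fold change ran from -6.79 to -4.75 in hC4A/- against hC4B/-, from -4.85 to -2.91 in hC4A/- against C4-/- and from 4.72 to 6.28 in hC4A/A against hC4A/-, and the extremes lay without hC4A/- replicate 5 and without hC4B/- replicate 4, C4-/- replicate 3 or hC4A/A replicate 1. Insig2, which retains the SREBP escort protein in the endoplasmic reticulum, averaged 5.71 ± 2.83 CPM in hC4B/- (SD, n = 4), against 52 ± 60.3 CPM in C4-/- (n = 5), with an adjusted p of 0.99 by edgeR. It averaged 46.5 ± 44.8 CPM in hC4A/- (n = 5), against the same 5.71 ± 2.83 CPM in hC4B/-, with an adjusted p of 0.236 by edgeR. In C4-/-, Insig2 stood at 132 and 102 CPM in replicates 1 and 2 and at 7.32 to 11.1 CPM in the others. Its libraries ran from 2.19 to 8.44 CPM in hC4B/- and from 10.4 to 119 CPM in hC4A/-. Ebp, a sterol isomerase, had plain means over libraries of 6.37 ± 9.24 CPM in the 3 human C4 genotypes (SD, n = 11) and 28.6 ± 47.4 CPM in C4-/- (n = 5). Its log2 fold change, with the 3 genotypes weighted equally, was -2.61 ± 0.93 (SE, adjusted p = 0.9998 by edgeR). The value was -0.70 without C4-/- replicate 1, which held 113 CPM.

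The listed genes did not share 1 pattern over the libraries. As a description, with libraries that share depth and breadth of detection, Spearman's rho of Abcg1 over 20 libraries was 0.63 with Soat1, 0.47 with Apoe, 0.05 with Nr1h2, 0.01 with Srebf2, 0.01 with Lpl and -0.17 with Abca1. Over the 16 libraries without broad detection it was 0.29 with Soat1, 0.10 with Apoe, 0.61 with Nr1h2, 0.59 with Srebf2, 0.07 with Lpl and 0.39 with Abca1. The order of partners differed between the sets of libraries. The 5 tested genes with the highest rho to Abcg1 over 20 libraries, on log2 CPM, were Tmem250-ps at 0.96, Tor1b at 0.92, Dhrs3 at 0.92, Itpripl1 at 0.91 and Gnb1 at 0.91. Over the 16 libraries rho was 0.93, 0.86, 0.84, 0.82 and 0.81 for the same genes in that order. The 5 were picked as the highest over libraries that include these 16, so these values are no separate check.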

How the data were processed

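Raw read counts per gene were deposited by the authors, 1 file per library, in STAR's gene-count layout. STAR, edgeR and the mouse build GRCm38 are named per the submitters' processing notes, which state neither versions nor an annotation release. The unstranded count column was used, since the first strand held 49.7% to 49.9% of stranded counts. Unmapped (14.8% to 42.1% of reads), multimapping (13.2% to 28.9%), featureless (21.8% to 42.1%) and ambiguous reads (0.897% to 5.86%) stayed out. Of 54838 genes, 54723 had a symbol in GENCODE M21, which also gave coordinates and exon lengths.

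Genes kept by filterByExpr, 12680, were scaled by TMM and fitted with edgeR 4.0.16 (quasi-likelihood, robust, R 4.3.3) over all 20 libraries without covariates. CPM divide by the counts of tested genes times the TMM factor. P-values measure the spread between libraries, 1 per mouse. The SE is the log2 fold change over the square root of F. Libraries of 1 genotype differed by a chi-square of 26.3 to 142 per degree of freedom, so none was a copy. The cDNA was amplified and carried no molecular identifiers, so counting intervals and floors (3 counts) cover counting error only. Satellite-like genes, 13 in all, took 13.3% to 81% of counts.

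The members, pathway lists, satellite-like genes and contrasts were chosen with earlier results of these data known. A fold change is printed for a listed gene where its unadjusted p was under 0.05, otherwise for the gene with the smallest p of a contrast, and for pathway genes at p under 0.01. The 5 genes nearest to Abcg1 were named by Spearman's rho. Alternatives were size factors by RLE, DESeq2 1.42.0, limma voom (3.58.1), no filter, removal of satellite-like genes or of the 4 broadly detecting libraries, detected genes as a covariate, a replicate block, fits on the groups of a contrast, and leaving out each library. The same settings were applied to pathway genes after seeing the data. The scripts were tested on simulated data.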

Additional observations from a re-analysis of the deposited data

Results flagged for a closer look

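A library stood apart from the others of its genotype, by Dixon's criterion at 95%, in 7 of 32 groups of 4 or 5 libraries tested for the listed genes. The criterion flags about 1 in 20 groups by chance where values are normally distributed, while these are unlogged CPM. All 7 flagged values were the highest of their group, so 7 of 32 cannot be set against that rate. Apoe reached 587 CPM in hC4A/- replicate 5, where the other 4 libraries lay between 124 and 197 CPM, and 430 CPM in C4-/- replicate 5, where the others lay between 26.2 and 98.8 CPM. Lpl reached 116 CPM in C4-/- replicate 1 (others 1.07 to 16.6 CPM) and 63.6 CPM in WT replicate 3 (others 0 to 10 CPM). Abca1 stood at 167 CPM in hC4A/- replicate 1, with the other 4 at 65.6 to 84.4 CPM. Abcg1 stood at 7646 CPM in WT replicate 3, with the other 3 at 2006 to 2417 CPM. Nr1h3 stood at 1.53 CPM in WT replicate 3, which is 2 counts, with the other 3 at 0. WT replicate 3 accounts for 3 of the 7 values. Abca1 (188 CPM), Soat1 (327 CPM), Srebf2 (16.1 CPM) and Nr1h2 (19.2 CPM) were also highest in that library among the WT, and Apoe was not. What sets these libraries apart was not tested.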

How the results depend on the processing

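The count of listed genes passing an adjusted p of 0.05 was 0 in every contrast and in the joint test under each of the settings that could be run (347 values), including leaving out each library in turn (lowest 0, highest 0). The other values followed were the fold changes chosen by the naming rule and the adjusted p of the 7 genes in the joint test. Of their alternative values, 765 kept their side of the threshold and, for fold changes, their direction. The exception was Srebf2 in hC4A/- against WT, which ran from -2.24 to 0.0147 with 1 library left out and changed sign without WT replicate 3. In the fit on the groups of the contrast, Srebf2 in hC4A/- against C4-/- was removed by the filter and has no value. RLE scaling moved the median log2 fold change over all genes in hC4B/- against WT to 0.53, against 0.18 with TMM. Over all tested genes edgeR called 0 in the 11 contrasts and 15 in the joint test, DESeq2 called 0 to 93 and 71, and limma voom 0 to 6 and 0. By the median, replicate numbers gave no sign of pairing the libraries. Deviations of 33 same-numbered pairs correlated with a median of 0.00833 (5 over 0.1, highest 0.697). For 124 different-numbered pairs the median was -0.00143 (12 over 0.1, highest 0.71). A median cannot exclude pairing under some of the numbers. With the numbers as a replicate block, 0 of the 7 genes passed in any contrast. With 2 to 5 libraries a genotype and a coefficient of variation near 1.03, most intervals of single genes span several-fold changes, and a gene with at most 3 counts a library, such as Nr1h3, entered only the fit without the filter. Unadjusted p-values near 0.05 moved with the setting: Apoe in hC4A/A against WT was under 0.05 by DESeq2 and with the replicate block, and Abcg1 in that contrast by limma voom, with no adjusted p under 0.05.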
